A study of Mus musculus with 8 samples.

Results

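The genes described here encode the V-type proton pump and the P-type ATPases of pancreatic islets. They were chosen by symbol, as every row of the deposited table whose name begins with Atp6 (V-type) or with Atp1a, Atp1b, Atp2b, Atp2c, Atp7, Atp8a, Atp8b, Atp9, Atp10, Atp11 or Atp13 (P-type). This gave 46 of 14126 genes, of which 18 are V-type and 28 are P-type. No measured value entered this rule, though it was chosen with earlier results of these data known. All 46 genes passed the filter on low values.

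Islets were profiled by bulk RNA sequencing from 4 KO mice (genotype IRE1αβ-/-, Ern1 lost from beta cells, which secrete insulin) and 4 WT mice (genotype IRE1αfl/fl, floxed Ern1). All mice were 7-week-old NOD/ShiLtJ, a strain that develops autoimmune diabetes, and tamoxifen at 10 mg/ml, injected into the peritoneum over 5 days to induce Cre, is recorded for both groups. The promoter that drives Cre is not given in the sources used here. Ern1 encodes IRE1α, a stress sensor of the endoplasmic reticulum, and the comparison asks how islet transcription differs with its loss from beta cells.

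The V-type pump is a rotary machine that uses ATP to move protons into organelles. Its cytosolic V1 sector hydrolyses ATP, its membrane V0 sector passes the protons, and the acid it makes is used by lysosomes for degradation and by insulin granules for prohormone processing and loading. P-type ATPases form a phosphorylated intermediate and move sodium and potassium, calcium, copper, polyamines or membrane lipids, and the sodium-potassium and calcium pumps set the ion gradients on which beta cell excitability rests.

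The promoters of 4 genes that were lower in KO are shown first, because each holds the core of the CLEAR element, TCACGTGA, the site bound by TFEB and related factors at many lysosomal genes. The letters are from RefSeq (GRCm38.p6), 250 bases before to 50 after the RefSeq start, 5′ to 3′ on the gene's own strand. They lie at chr8:105566015-105566314 (minus strand) for Atp6v0d1, chr17:26676146-26676445 (plus) for Atp6v0e, chr16:44139210-44139509 (minus) for Atp6v1a and chrX:106026974-106027273 (plus) for Atp7a, and the windows of Atp6v0e and Atp6v1a lie wholly inside the gene as GENCODE annotates it, downstream of its outermost start. Capitals mark the CLEAR core, and in Atp7a also the UPRE letters that overlap it.
Atp6v0d1: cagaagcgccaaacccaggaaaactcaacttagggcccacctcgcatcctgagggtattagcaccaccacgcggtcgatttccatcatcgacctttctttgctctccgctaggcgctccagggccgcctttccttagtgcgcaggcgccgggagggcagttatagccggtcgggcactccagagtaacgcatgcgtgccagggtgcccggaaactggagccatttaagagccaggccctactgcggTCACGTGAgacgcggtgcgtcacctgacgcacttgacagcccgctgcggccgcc
Atp6v0e: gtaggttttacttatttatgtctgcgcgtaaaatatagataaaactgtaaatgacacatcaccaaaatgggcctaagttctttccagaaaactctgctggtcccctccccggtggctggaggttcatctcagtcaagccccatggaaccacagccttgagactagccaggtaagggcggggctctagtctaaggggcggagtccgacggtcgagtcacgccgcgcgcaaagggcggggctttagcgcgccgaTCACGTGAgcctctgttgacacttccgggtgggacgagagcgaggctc
Atp6v1a: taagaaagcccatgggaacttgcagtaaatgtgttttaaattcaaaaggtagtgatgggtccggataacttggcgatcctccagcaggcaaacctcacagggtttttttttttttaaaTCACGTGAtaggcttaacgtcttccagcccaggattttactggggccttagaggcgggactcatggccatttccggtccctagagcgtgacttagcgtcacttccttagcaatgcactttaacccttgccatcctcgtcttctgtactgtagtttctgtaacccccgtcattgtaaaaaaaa
Atp7a: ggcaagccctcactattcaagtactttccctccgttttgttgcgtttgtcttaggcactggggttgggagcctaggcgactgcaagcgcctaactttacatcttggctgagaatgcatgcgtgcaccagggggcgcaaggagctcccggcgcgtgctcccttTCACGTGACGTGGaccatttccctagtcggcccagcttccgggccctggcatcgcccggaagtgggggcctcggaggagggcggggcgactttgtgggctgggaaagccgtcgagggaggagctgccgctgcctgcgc

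Counting the RefSeq start as position 1, the first base of the core was 4 bases before the start in Atp6v0d1, at position 3 in Atp6v0e, 132 bases before the start in Atp6v1a and 88 bases before it in Atp7a. A promoter entry existed for 13 of 18 V-type and 17 of 28 P-type genes. Some genes have several entries, so members are counted by gene, as holding a motif in any entry. On either strand, TCACGTGA was found in 3 of the 13 V-type genes, against 2.09% of the 10540 genes of the table with an entry, counted in the same way. Counted by promoter, 0.974% of all 32851 promoters of the same length held it. Those 3 genes (Atp6v0d1, Atp6v0e and Atp6v1a) were among 7 V-type genes with a promoter entry that were lower in KO by the test below. None of the 6 V-type genes with an entry and no call held it. Of the 17 P-type genes with an entry 2 held it, Atp7a, which was lower in KO, and Atp2b1, which was not called.

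For the other 7 motifs searched, the share of the table's genes is given first and that of all promoters after it. The 6-base E-box CACGTG, which lies inside the CLEAR core, was in 4 V-type genes (Atp6v0b besides the 3 above) and 3 P-type genes, against 11.4% of the table's genes and 7.15% of all promoters. The longer CLEAR palindrome, which is the core with G before and C after it, was in no V-type gene and in the P-type Atp2b1, against 0.75% and 0.326%. The UPRE TGACGTGG, a site of XBP1 and ATF6, was in Atp7a alone among the members, against 1.06% and 0.676%, and the ERSE, CCAAT and CCACG with 9 bases of any kind between them, was in none of them, against 0.171% and 0.119%. TGACGT, which lies inside the UPRE, was in 2 V-type genes and 1 P-type gene, against 13.1% and 7.51%. CCAAT, which opens the ERSE, was in 5 V-type and 3 P-type genes, against 42.5% and 37.4%. GCGCATGC, a part of the NRF1 site, was in 2 V-type genes and 1 P-type gene, against 5.86% and 2.71%. These are matches of letters in a window, not measured binding.

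Values are the authors' normalised counts rounded to whole numbers, and the 4 values of a group are given in the order of libraries 1 to 4. Their totals ran from 32024139 to 34077672 in KO and from 33631875 to 34858983 in WT, and follow normalisation, so sequencing depth is unknown and precision rests on the spread between 4 libraries a group. Differences are log2 fold changes of KO over WT on the log2(value + 1) scale with their standard error (SE), and a gene is called when its limma-trend p, adjusted over all 14121 genes tested, is under 0.05. Ern1 itself had 7223, 7390, 6922 and 7216 in KO, against 5549, 5164, 4622 and 4500 in WT. Its whole-gene value was therefore higher in every KO library, by 0.54 ± 0.08 (adjusted p = 0.00234), and such a total over all exons does not check a deletion of some of them, so the directions below rest on the labels. Xbp1, whose mRNA IRE1α splices, averaged 9022 ± 1835 in KO and 10996 ± 978 in WT (SD, n = 4 each), with overlapping libraries and no call (adjusted p = 0.168).

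The islet label held for both groups, with endocrine hormones and their regulators abundant in every library. Beta cell markers summed to between 2545096 and 3492592 in KO, against 5372835 to 6011082 in WT, and 8 of 10 were called lower (6 with the replicate number as a block). Alpha cell markers summed to between 1923783 and 2627035 in KO, against 404531 to 1045247 in WT, with 7 of 8 called higher (6 with the block), and 6 of 7 delta, PP and epsilon markers were called higher. Acinar markers overlapped between groups, at 109992 to 335295 in KO and 16547 to 213944 in WT. By limma-trend 0 of 9 acinar markers were called, while 5 were higher at an unadjusted p under 0.05, 2 with the block and 7 in the authors' deposited table. Of 9 stellate and fibroblast markers 1 was called higher, while 4 were at an unadjusted p under 0.05, 7 with the block and 7 in the authors' deposited table. Of 8 ductal markers 2 were called higher, while 4 were at an unadjusted p under 0.05, 4 with the block and 5 in the authors' deposited table. Ductal markers summed to between 20115 and 40314 in KO, against 12429 to 23069 in WT. KO1 was the highest KO library for every ductal marker but Krt8. Of 9 macrophage markers 1 was called higher, and of 4 lymphocyte markers 1 was called lower. By limma-trend 0 of 7 endothelial and 0 of 7 Schwann cell and neuronal markers were called, 0 of either at an unadjusted p under 0.05, 0 and 1 with the block, and 0 and 3 in the authors' deposited table. No measured marker was at 0 in every library. In bulk tissue, fewer cells of a type and less RNA per cell cannot be told apart, and the part of these marker shifts in the results below was not tested.

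Of 18 V-type genes, 9 were called lower in KO islets, 0 were called higher and 9 were not called, where 9.81% of all genes tested were called lower and 11.1% higher. At an unadjusted p under 0.05, 12 were lower and 0 higher, and the authors' deposited table calls 10 lower and 0 higher, against 13.1% and 16.2% of its genes. No share of all genes at an unadjusted p is given here, so counts at it have no background. The fold change was negative for 17 of 18 (16 with library totals made equal, where Atp6v1d changed sign), against 50.1% of all genes, with a median of -0.33 and a range of -0.78 to 0.05, against a median of -0.0008 over all genes. In 10 of them every KO library lay below every WT library, against 12.3% of all genes. By sector, 4 of 7 V0 genes and 5 of 9 V1 genes were called lower, with medians of -0.42 and -0.33, and neither of the 2 accessory genes was called by limma-trend, at an unadjusted p under 0.05 or in the authors' deposited table.

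**Figure D1:**
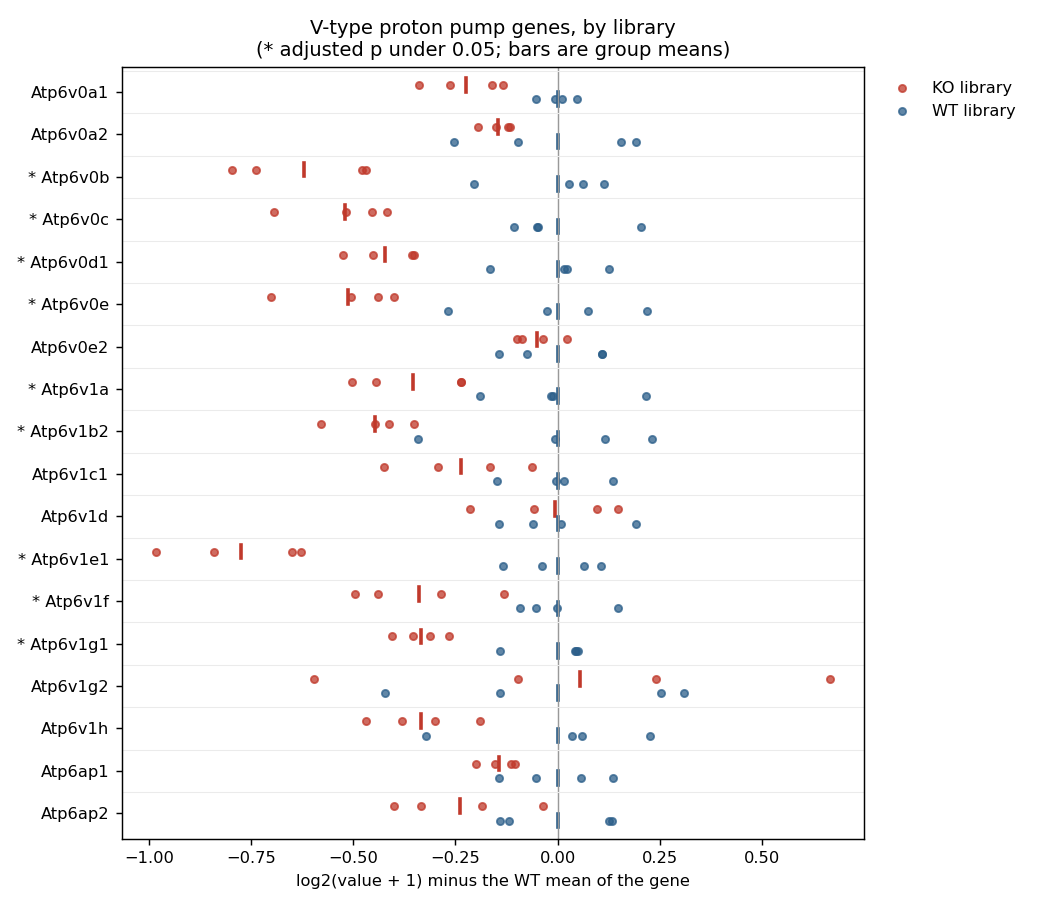
V-type proton pump genes by library: each row is a gene, the x axis is log2(value + 1) minus the gene's WT mean, points are KO (red, upper) and WT (blue, lower) libraries, bars are group means and asterisks mark the 9 called genes. The KO means lie to the left of 0 for 17 of 18 genes, Atp6v1g2 being the exception.

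In the V1 sector the furthest from WT was Atp6v1e1 (chr6:120794305-120822793, minus strand), which encodes the E subunit of the peripheral stalks that hold the ATP-hydrolysing head still. It had 2539, 2805, 3197 and 3248 in KO, against 5246, 4891, 5404 and 4577 in WT. All KO libraries lay far below the lowest WT library, and Atp6v1e1 fell by 41.6% (log2 fold change -0.78 ± 0.10, adjusted p = 0.00106). Its partner in the same stalks, Atp6v1g1 (chr4:63544772-63550750, plus strand), had 2625, 2799, 2892 and 2720 in KO, against 3602, 3583, 3590 and 3155 in WT. WT4 was the lowest WT library and still stood above all KO libraries, with a log2 fold change of -0.33 ± 0.07 (adjusted p = 0.0117). Atp6v1g2, the G isoform known mainly from neurons, had 69, 124, 167 and 98 in KO, against 78, 95, 130 and 125 in WT. Its groups overlapped fully (0.05 ± 0.29, adjusted p = 0.918). The exons of Atp6v1g2 overlap those of Nfkbil1 on the other strand, and the strandedness of the counting is not given. Nfkbil1 averaged 146 ± 16.6 in KO and 210 ± 84.5 in WT (adjusted p = 0.283), above Atp6v1g2 in both groups.

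The head itself is built of alternating A and B subunits. The catalytic A subunit, Atp6v1a (chr16:44085402-44139705, minus strand), had 3368, 3510, 4049 and 4052 in KO, against 5541, 4720, 4739 and 4183 in WT. The groups did not overlap, though KO3 and KO4 came close to WT4, and the log2 fold change was -0.35 ± 0.10 (adjusted p = 0.0412). Atp6v1b2 (chr8:69088646-69113711, plus strand), the B subunit, had 5198, 5698, 5841 and 6091 in KO, against 9111, 8419, 7736 and 6133 in WT. WT4 was nearly level with KO4 while the other WT libraries stood well above, and the log2 fold change was -0.45 ± 0.12 (adjusted p = 0.0309). Both calls were lost without any 1 library other than WT4, with adjusted p from 0.0555 to 0.104 for Atp6v1a and from 0.0533 to 0.0837 for Atp6v1b2. With the replicate number as a block Atp6v1a had an adjusted p of 0.0615.

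Atp6v1f (chr6:29467718-29470512, plus strand), a subunit of the rotating central stalk, had 1463, 1882, 1692 and 1522 in KO, against 2062, 2284, 1987 and 1934 in WT. KO2 came close to WT4 without crossing it, and the log2 fold change was -0.34 ± 0.10 (adjusted p = 0.0388). That call was lost without any 1 of KO1, KO3, KO4, WT1, WT2 and WT3, with adjusted p from 0.0642 to 0.105. Atp6v1d, which forms the axle of the same stalk, did not differ in mean, at 2130 ± 237 in KO and 2138 ± 216 in WT (SD, n = 4 each; -0.01 ± 0.11, adjusted p = 0.970).

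The C and H subunits, which couple V1 to V0, were not called. Atp6v1c1 averaged 2960 ± 319 in KO and 3480 ± 279 in WT (SD, n = 4 each; -0.24 ± 0.10, adjusted p = 0.118). Atp6v1h (chr1:5070018-5162529, plus strand) had 2418, 2275, 2557 and 2761 in KO, against 3682, 3225, 3283 and 2521 in WT. WT4 fell within the KO range and the other WT libraries lay above it (-0.33 ± 0.12, adjusted p = 0.0781). Without WT4 its adjusted p was 0.0117, and in the authors' deposited table its log2 fold change was -0.34 with an FDR of 0.0183.

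In the V0 sector, the genes of the proton-carrying ring were lower in KO. Atp6v0b (chr4:117884326-117887333, minus strand), which encodes the c'' ring subunit, had 1991, 2398, 2384 and 1913 in KO, against 3386, 3469, 3590 and 2882 in WT. The groups were well apart, with WT4 the lowest WT library, and Atp6v0b fell by 34.9% (log2 fold change -0.62 ± 0.11, adjusted p = 0.00418). Atp6v0c (chr17:24163866-24169702, minus strand), the main c subunit of the ring, had 1353, 1598, 1638 and 1529 in KO, against 2031, 2117, 2522 and 2113 in WT. KO1 was the lowest and WT3 the highest library, with no overlap, and Atp6v0c fell by 30.3% (-0.52 ± 0.09, adjusted p = 0.00564). A pseudogene of Atp6v0c on chromosome 6 (Gm15487 in the table) had 215, 211, 165 and 126 in KO, against 168, 267, 336 and 369 in WT (adjusted p = 0.126), so reads may have been split between the gene and its copy.

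Atp6v0d1 (chr8:105524465-105566047, minus strand), which joins the ring to the central stalk, had 2171, 2282, 2446 and 2441 in KO, against 3409, 3155, 3172 and 2786 in WT. Every KO library lay below WT4, the lowest WT library (-0.42 ± 0.08, adjusted p = 0.00753). Atp6v0e (chr17:26663231-26699647, plus strand), a small membrane subunit, had 1091, 1308, 1344 and 1250 in KO, against 1870, 1744, 2067 and 1473 in WT. WT4 was again the WT library nearest to KO, without overlap, and Atp6v0e fell by 29.9% (-0.51 ± 0.12, adjusted p = 0.0148). Its isoform Atp6v0e2 had 2064, 2225, 2044 and 2136 in KO, against 2362, 2363, 2079 and 1985 in WT. Those groups overlapped, with WT1 and WT2 high (-0.05 ± 0.08, adjusted p = 0.710).

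The a subunit lines the path of protons beside the ring, and its isoforms direct the pump to different membranes. Atp6v0a1 (chr11:101009452-101063719, plus strand) had 3285, 3465, 3720 and 3791 in KO, against 4009, 4296, 4189 and 4135 in WT. No KO library reached the WT range, yet the difference just missed the threshold (-0.22 ± 0.07, adjusted p = 0.0511). Atp6v0a2 had 1763, 1801, 1711 and 1807 in KO, against 2237, 2180, 1832 and 1643 in WT. WT4 was the lowest of all its libraries and WT1 the highest, so the groups overlapped (-0.15 ± 0.10, adjusted p = 0.365). Tcirg1, which encodes the a3 subunit and lies outside the symbol rule, had 253, 279, 335 and 264 in KO, against 184, 243, 396 and 288 in WT (0.07 ± 0.22, adjusted p = 0.851), with WT spread on both sides of KO. The accessory genes Atp6ap1 and Atp6ap2, which help assemble the pump and pair with it in the membrane, had log2 fold changes of -0.14 ± 0.08 and -0.24 ± 0.11 (adjusted p = 0.226 and 0.146).

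Per kilobase of exon, the order of V-type levels differed between groups at its top. The highest in KO was Atp6ap2 at 3223 ± 368 per kb, against 3801 ± 395 per kb in WT (SD, n = 4 each). Atp6v1e1 stood at 2246 ± 257 per kb in KO, below Atp6ap2, Atp6ap1 and Atp6v1g1, and at 3834 ± 282 per kb in WT, where it came first, within the spread of Atp6ap2. Atp6v1g2 was the lowest V-type gene in both groups, at 61.2 ± 22.2 per kb in KO and 57.2 ± 13.2 per kb in WT. The share of Atp6v0e in the summed level of both per kb was 22.1% ± 1.54 in KO and 28.1% ± 2.9 in WT, without overlap of libraries. The share of Atp6v0a1 in the sum of Atp6v0a1 and Atp6v0a2, with Tcirg1 left out, was nearly level, at 72.6% in KO and 73.6% in WT. That of Atp6v1g1 in the sum of Atp6v1g1 and Atp6v1g2 was 97.6% in KO and 98.2% in WT. Shares are descriptions and were not tested.

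P-type genes showed no common direction. Of 28 genes, 4 were called higher (14.3%) and 4 lower (14.3%), where 11.1% and 9.81% of all genes were called, so these shares were near the background. Their median was 0.07 with a range of -0.57 to 1.24, and 12 were negative and 16 positive. Every KO library lay above every WT library for 4 genes, against 13.6% of all genes, and below for 7, against 12.3%.

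**Figure D2:**
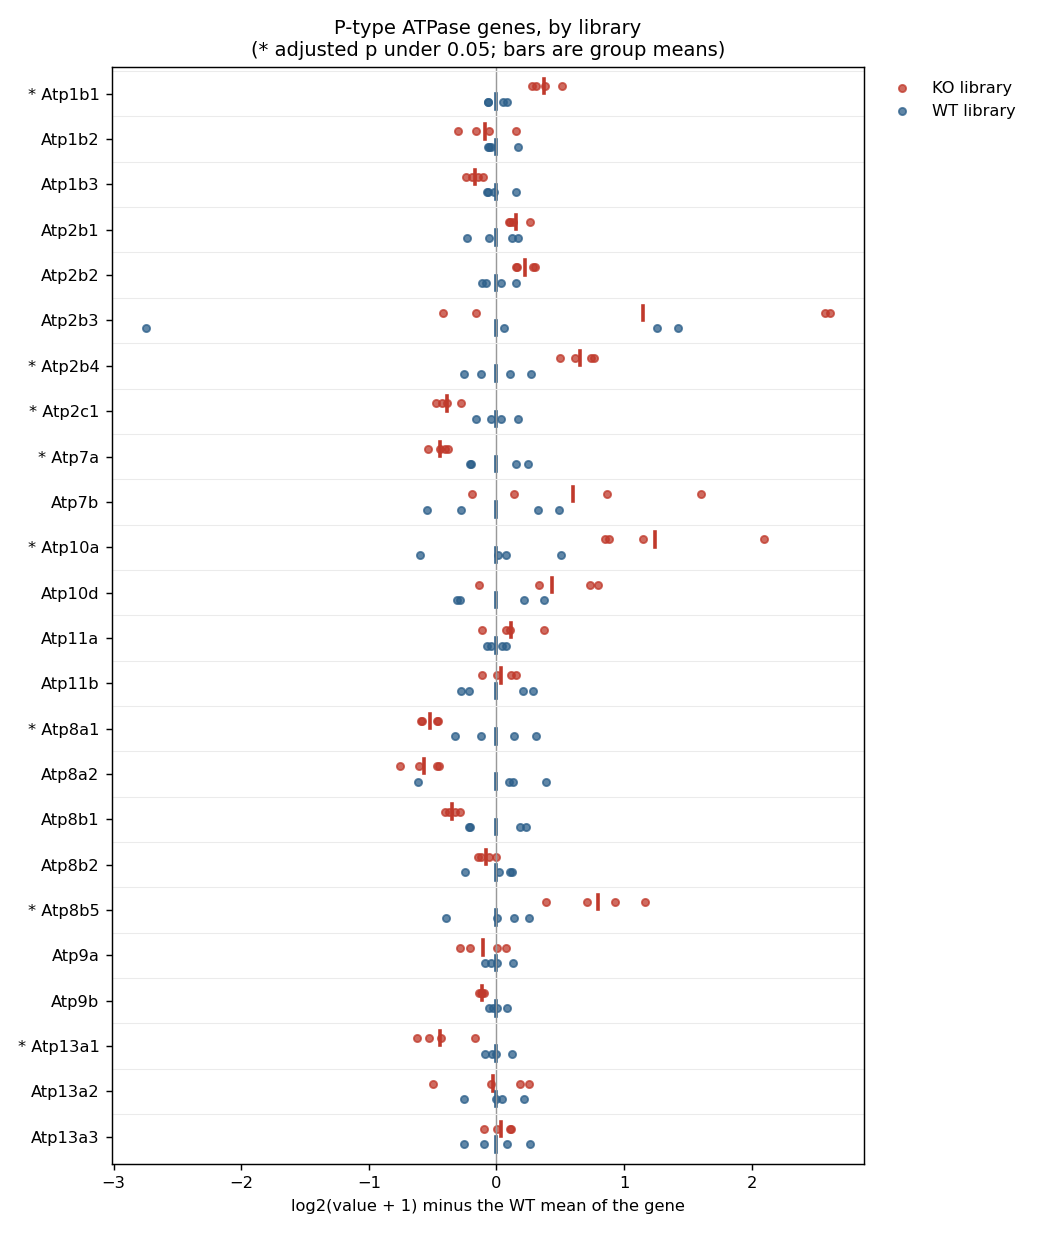
P-type ATPase genes by library, for the 24 genes whose values are given: rows, axis, points and bars are as in the plot of V-type genes, ordered from sodium-potassium, calcium and copper pumps to lipid flippases (P4) and P5 ATPases. KO means lie on both sides of 0, from -0.57 for Atp8a2 to 1.24 for Atp10a, and the 8 asterisks are split evenly.

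The sodium-potassium pump exports sodium and imports potassium, with a catalytic alpha and a chaperone-like beta subunit. Atp1b1 (chr1:164437109-164458355, minus strand), the common beta subunit, had 5312, 4955, 5062 and 5839 in KO, against 4325, 3904, 3906 and 4237 in WT. KO libraries stood above all WT libraries, and Atp1b1 was 1.29-fold higher (log2 fold change 0.37 ± 0.08, adjusted p = 0.0103). Its exons overlap those of Nme7 on the other strand, which had 176, 158, 149 and 163 in KO, against 118, 157, 112 and 126 in WT (adjusted p = 0.132), and the strandedness of the counting is not given in the sources used here. Atp1b3 had 1659, 1711, 1773 and 1821 in KO, against 2183, 1935, 1864 and 1868 in WT. KO libraries lay just below WT without overlap, and the gene was not called (-0.17 ± 0.08, adjusted p = 0.146). Atp1b2, a beta subunit known from glia and neurons, had 305, 336, 362 and 420 in KO, against 365, 360, 361 and 424 in WT, with full overlap (-0.09 ± 0.12, adjusted p = 0.640).

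Per kb, Atp1b1 made up 67.2% ± 1.36 of the summed beta subunit level in KO and 58.7% ± 1.09 in WT, with 65.9% in the lowest KO library and 60.2% in the highest WT library. Atp1b3 took 28.7% ± 1.24 in KO and 36.4% ± 1.5 in WT, and Atp1b2 4.10% ± 0.375 in KO and 4.92% ± 0.427 in WT. Every KO library thus had a larger share of Atp1b1 and a smaller share of Atp1b3 than every WT library.

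**Figure D3:**
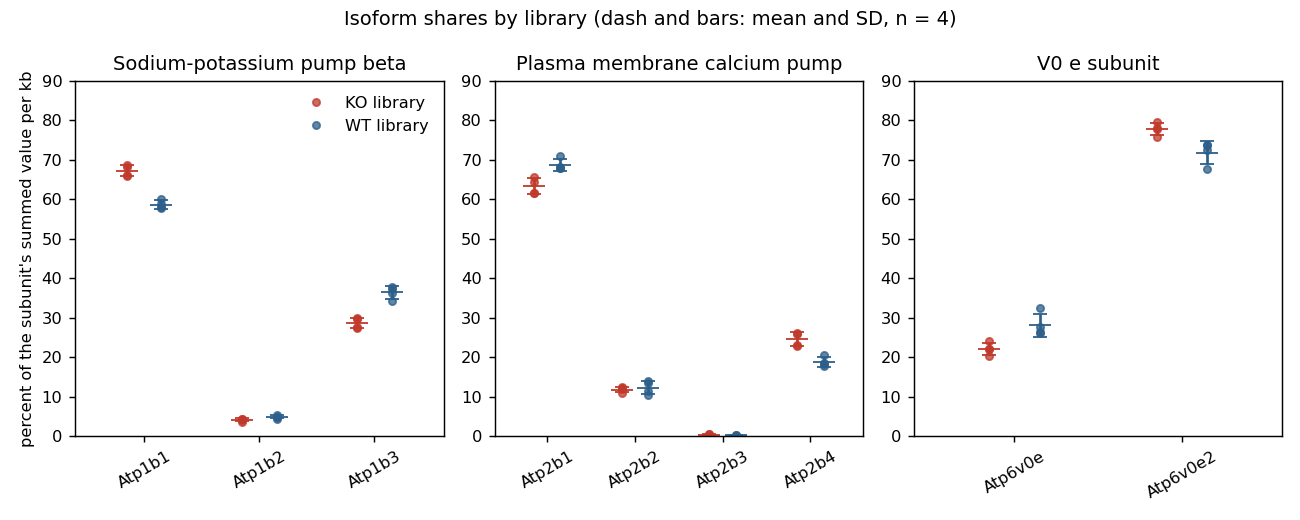
Isoform shares by library: the y axis is the percent of the summed value per kb of exon within sodium-potassium pump beta subunits, plasma membrane calcium pumps and V0 e subunits, points are KO (red) and WT (blue) libraries, dashes and bars are mean and SD (n = 4). KO libraries lie above WT for Atp1b1 (67.2% in KO, 58.7% in WT) and Atp2b4 (24.6% in KO, 18.8% in WT) and below WT for Atp1b3, Atp2b1 and Atp6v0e.

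Calcium is cleared from the cytosol by plasma membrane pumps (Atp2b) and taken into the Golgi, with manganese, by Atp2c1. Atp2b4 (chr1:133699457-133801041, minus strand) had 4942, 5027, 4171 and 4514 in KO, against 3172, 3554, 2477 and 2718 in WT. The lowest KO library, KO3, was above the highest WT library, WT2, and Atp2b4 was 1.57-fold higher (0.66 ± 0.12, adjusted p = 0.00587). This call held within each pair of libraries, at 0.57 for libraries 1 and 2 and 0.74 for libraries 3 and 4 (adjusted p = 0.00941 and 0.00312). Atp2c1 (chr9:105403539-105527319, minus strand) had 4956, 4788, 5096 and 5502 in KO, against 7484, 6815, 5970 and 6457 in WT. WT3 was the WT library nearest to KO, with no overlap (-0.39 ± 0.09, adjusted p = 0.0134). Its exons overlap those of Aste1 on the other strand, at 194 ± 24.8 in KO and 236 ± 36.4 in WT (adjusted p = 0.229).

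The other plasma membrane pumps were not called. Atp2b1 averaged 7187 ± 389 in KO and 6511 ± 815 in WT (SD, n = 4 each; 0.15 ± 0.10, adjusted p = 0.323). Atp2b2 averaged 1787 ± 97.2 in KO and 1531 ± 131 in WT (0.23 ± 0.08, adjusted p = 0.0847), and without WT4 its adjusted p was 0.0383. Atp2b3 had 4, 5, 40 and 39 in KO, against 6, 0, 15 and 17 in WT, too low to compare and split by library number. Per kb, Atp2b4 made up 24.6% ± 1.75 of the plasma membrane pumps in KO and 18.8% ± 1.19 in WT, while Atp2b1 made up 63.3% ± 2.1 in KO and 68.8% ± 1.5 in WT.

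The copper pumps load copper enzymes in the Golgi and export excess copper. Atp7a (chrX:106027276-106124926, plus strand) had 3083, 3124, 2796 and 2995 in KO, against 4835, 4529, 3521 and 3547 in WT. KO libraries were close together and below all WT libraries, of which WT1 and WT2 were the highest (-0.44 ± 0.12, adjusted p = 0.0264). The call was lost without any 1 of KO1, KO3, KO4, WT1 and WT2, with adjusted p from 0.0545 to 0.0738. Atp7b, the copper pump of liver, had 176, 105, 50 and 63 in KO, against 81, 72, 39 and 47 in WT. Its libraries overlapped, with KO1 the highest (adjusted p = 0.337), and Atp7a made up 97.6% of the summed level of both per kb in KO and 98.9% in WT.

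P4 ATPases are flippases that carry lipids such as phosphatidylserine to the cytosolic face of membranes, most of them with a CDC50 partner. Of 12 members, 2 were called higher and 1 lower, with a median of -0.02. Atp8a1 (chr5:67618140-67847434, minus strand), a phosphatidylserine flippase, had 1909, 1763, 1749 and 1922 in KO, against 3276, 2896, 2419 and 2110 in WT. KO libraries were tight and below WT4, the lowest WT library (-0.52 ± 0.13, adjusted p = 0.0218). Without KO2, KO3 or WT2 its adjusted p was 0.0536, 0.0580 and 0.0620. Atp10a (chr7:58656166-58829420, plus strand), whose human counterpart is known as a phosphatidylcholine flippase, had 291, 150, 122 and 125 in KO, against 44, 71, 68 and 96 in WT. KO1 stood well above the other KO libraries, and all KO libraries were above WT (1.24 ± 0.33, adjusted p = 0.0269). Without KO2, WT1, WT2 or WT3 the adjusted p ran from 0.0528 to 0.0623, and within libraries 3 and 4 the log2 fold change was 0.61 (adjusted p = 0.109), against 1.88 within libraries 1 and 2 (adjusted p = 0.0184).

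Atp8b5 (chr4:43267159-43373833, plus strand), a flippase best known from mouse testis, had 117, 138, 80 and 100 in KO, against 61, 73, 46 and 67 in WT. KO3 was nearest to WT and the groups did not overlap (0.80 ± 0.23, adjusted p = 0.0372). The call was lost without any 1 of KO1, KO2, KO4, WT1, WT2 and WT3, with adjusted p from 0.0513 to 0.0902. Atp8b1, the flippase mutated in a human bile-flow disorder, had 8976, 9534, 8788 and 9253 in KO, against 13675, 13225, 10001 and 10070 in WT. KO libraries all lay below WT, where WT1 and WT2 stood far above WT3 and WT4 (-0.35 ± 0.12, adjusted p = 0.0661). With the replicate block its adjusted p was 0.0453, and without WT3 or WT4 it was 0.0431 and 0.0359.

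Atp8a2, a flippase of neurons and photoreceptors, had 214, 217, 194 and 175 in KO, against 325, 387, 317 and 193 in WT. WT4 fell among the KO libraries and the other WT libraries lay above (-0.57 ± 0.20, adjusted p = 0.0801). Its adjusted p was 0.0312 with the replicate block and 0.00578 without WT4, and the authors' deposited table gave a log2 fold change of -0.60 with an FDR of 0.0134. The flippases Atp8b2, Atp9a, Atp9b, Atp10d, Atp11a and Atp11b were not called, with log2 fold changes from -0.12 for Atp9b to 0.43 for Atp10d. Atp9b still had all KO libraries below WT, at 1429 ± 16.7 in KO and 1550 ± 67.1 in WT (SD, n = 4 each; adjusted p = 0.235). Atp10d is annotated as a polymorphic pseudogene in the reference strain.

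Of the P5 ATPases, Atp13a1 (chr8:69791163-69807749, plus strand), which removes misinserted membrane proteins from the endoplasmic reticulum, had 1783, 2153, 1669 and 1565 in KO, against 2356, 2631, 2269 and 2409 in WT. KO2 came closest to the WT libraries without reaching them (-0.44 ± 0.11, adjusted p = 0.0189). Without KO3, KO4 or WT2 its adjusted p was 0.0550, 0.0524 and 0.0560. Its exons overlap those of Zfp866 on the other strand, which averaged 1505 ± 339 in KO and 1733 ± 623 in WT (adjusted p = 0.723). The polyamine transporters of endosomes and lysosomes, Atp13a2 and Atp13a3, had log2 fold changes of -0.03 ± 0.17 and 0.03 ± 0.11 (adjusted p = 0.937 and 0.875).

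Libraries 1 and 2 differed from libraries 3 and 4 with both groups fitted together, a split by library number that the labels do not explain. The split was not tested within KO or within WT. With the label in the model, 9.38% of all genes were higher in libraries 3 and 4 and 6.06% lower. No V-type gene was called, the smallest limma-trend adjusted p being 0.144 for Atp6v1d. Of P-type genes 4 were higher, among them Atp10d by 0.63 and Atp2b3 by 2.78, and 3 lower (Atp11b, Atp2b4 and Atp7b, by -0.29 to -1.04). The size of the KO difference was then read within each set of 2 against 2 libraries. In libraries 1 and 2 alone, 11 of 18 V-type genes were called lower, against 10.8% of all genes. In libraries 3 and 4 alone, 3 were (Atp6v0b, Atp6v0c and Atp6v1e1), against 11.4% of all genes.

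Of those 3 V-type genes, Atp6v0b had -0.65 and -0.59 and Atp6v0c -0.50 and -0.54, with libraries 1 and 2 given before libraries 3 and 4. These were close in size in both sets. Atp6v1e1 had -0.92 and -0.63 in the same order, smaller in the second set. Atp6v1a had -0.57 and -0.14 in the same order, and Atp6v1b2 had -0.69 and -0.21, each smaller in the second set. Over V-type genes the median was -0.42 within the first set and -0.14 within the second. Whether the KO difference itself differed between the sets was not tested. Of P-type genes called lower, only Atp13a1 was called in libraries 3 and 4 alone, at -0.53 (adjusted p = 0.00873).

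**Figure D4:**
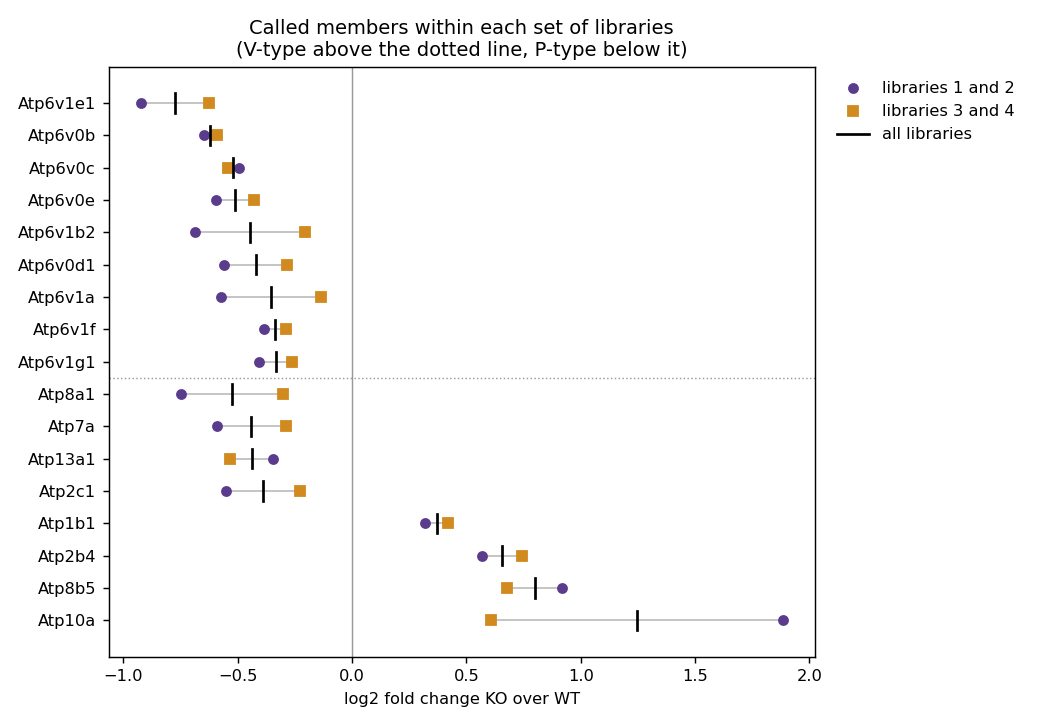
Log2 fold change of KO over WT for the 17 called members within libraries 1 and 2 (circles), within libraries 3 and 4 (squares) and over all libraries (bars), with V-type genes above the dotted line and P-type genes below it. Every called member keeps its side of 0 in both sets, and the difference is smaller in libraries 3 and 4 for 8 of 9 V-type genes, all but Atp6v0c.

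Genes that work with these pumps were read from lists chosen by function, beside the same background of 11.1% higher and 9.81% lower. That background is for limma-trend calls, and counts at an unadjusted p have none. The endocrine marker sums given above differ between the same libraries, and their part in these counts was not tested. Of V-ATPase subunits, assembly and docking factors outside the symbol rule, 14 of 16 were tested, with 1 called higher, 3 lower and a median of -0.11. Tbc1d24, a vesicle-trafficking protein with a domain that binds the pump, had 753, 757, 813 and 650 in KO, against 1130, 1160, 1219 and 1209 in WT (-0.67 ± 0.09, adjusted p = 0.00109), with a wide gap between groups. Wdr7, a partner of the rabconnectins that reassemble V1 on V0, had 3374, 3407, 3270 and 3228 in KO, against 5337, 5061, 4305 and 4167 in WT (-0.50 ± 0.09, adjusted p = 0.00570), again without overlap. Tmem9b was lower by a smaller amount (-0.31 ± 0.09, adjusted p = 0.0332, lost without any 1 library but KO4, up to 0.0836). Oxr1, whose yeast counterpart takes the pump apart, had 2205, 2377, 3003 and 2863 in KO, against 2017, 1698, 1811 and 2030 in WT (0.46 ± 0.12, adjusted p = 0.0223). All KO libraries were above WT, and without KO3, KO4, WT2 or WT3 its adjusted p reached up to 0.0637.

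CLC exchangers trade chloride for protons and carry the counter-charge of acidification. Of 6 genes 1 was called higher and 3 lower, with a median of -0.28. Clcn7, the lysosomal exchanger, had 668, 664, 605 and 575 in KO, against 1059, 1112, 992 and 909 in WT (-0.69 ± 0.09, adjusted p = 0.00131), with no overlap. Its beta subunit Ostm1 (-0.46 ± 0.13, adjusted p = 0.0296) and the late endosomal Clcn6 (-0.35 ± 0.10, adjusted p = 0.0358) were also lower, and neither call held in every fit with 1 library left out. Without any 1 of KO1, KO3, KO4, WT1 and WT2 the Ostm1 adjusted p ran up to 0.0804, and without any 1 of KO1, KO2, KO4, WT2, WT3 and WT4 that of Clcn6 ran up to 0.0912. Clcn5, the endosomal exchanger, had 2455, 2259, 1888 and 1969 in KO, against 1364, 1333, 1104 and 1124 in WT. It was higher in every KO library (0.80 ± 0.11, adjusted p = 0.00170), so members of this list moved in opposite directions.

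Of 24 lysosomal genes of the CLEAR network and their factors, 8 were called lower and 0 higher, with a median of -0.20. At an unadjusted p under 0.05, 11 were lower and 1 higher, and the authors' deposited table has 8 lower and 0 higher. Neu1, the lysosomal sialidase, had 1081, 1232, 1805 and 1337 in KO, against 1791, 1992, 3133 and 2961 in WT. KO3 was just above WT1, the only overlap (-0.84 ± 0.22, adjusted p = 0.0245), and without KO1, KO2, KO4, WT3 or WT4 the adjusted p ran up to 0.0686. The carboxypeptidase Scpep1 (-0.63 ± 0.10, adjusted p = 0.00290), the ceramidase Asah1 (-0.53 ± 0.07, adjusted p = 0.00108) and the hexosaminidase subunit Hexa (-0.50 ± 0.07, adjusted p = 0.00153) were lower with no overlap of libraries. Tfeb, which encodes a factor that binds the CLEAR element, had 93, 106, 113 and 107 in KO, against 94, 167, 158 and 157 in WT, with WT1 level with KO and no call (-0.42 ± 0.20, adjusted p = 0.172). Tfe3 and Mitf encode related factors, and their groups overlapped with no call. Tfe3 averaged 1338 ± 245 in KO and 1286.5 ± 374.9 in WT (0.09 ± 0.21, adjusted p = 0.814). Mitf averaged 319 ± 35.6 in KO and 307.2 ± 23.6 in WT (0.05 ± 0.11, adjusted p = 0.797).

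Proton-coupled vesicular transporters use the gradient to load small molecules, amines and polyamines among them. Of 9 listed 4 were tested and 2 called higher, with a median of 0.29. Slc18a2, the monoamine transporter VMAT2, had 183, 179, 190 and 171 in KO, against 128, 80, 88 and 109 in WT (0.85 ± 0.17, adjusted p = 0.00820), and Slc18b1, the polyamine transporter, averaged 258 ± 28.8 in KO and 172 ± 12.4 in WT (0.57 ± 0.12, adjusted p = 0.0118). Both had every KO library above every WT library.

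On the P-type side, 10 of 16 partner subunits were tested, with 1 called higher and a median of 0.29, 5 higher at an unadjusted p under 0.05, 4 higher with the replicate block and 4 higher in the authors' deposited table. By each of these 0 were lower. Fxyd3, a modulator of the sodium-potassium pump, had 617, 343, 262 and 262 in KO, against 97, 92, 101 and 105 in WT. All KO libraries were far above the narrow WT range, with KO1 highest (1.81 ± 0.26, adjusted p = 0.00181). The CDC50 partner of most flippases, Tmem30a, had 7219, 7209, 7634 and 8441 in KO, against 8415, 6340, 7021 and 8719 in WT, fully overlapping (0.01 ± 0.11, adjusted p = 0.964). Of 11 scramblases tested, which dissipate the lipid asymmetry that flippases build, 2 were called higher and 0 lower with a median of 0.01. At an unadjusted p under 0.05, 3 were higher and 0 lower, and 3 were higher and 1 lower both with the replicate block and in the authors' deposited table. The calls were Plscr4 (1.15 ± 0.29, adjusted p = 0.0239), whose call was lost without any 1 of KO1, KO3, KO4, WT1 and WT2 (up to 0.0668), and Xkr4 (0.80 ± 0.12, adjusted p = 0.00192).

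Of 7 copper uptake and chaperone genes tested, Cox17, which delivers copper to the mitochondrial oxidase, was the 1 call, with 698, 723, 604 and 478 in KO, against 918, 1038, 905 and 852 in WT. All KO libraries were below WT (-0.58 ± 0.14, adjusted p = 0.0173), and without WT2 the adjusted p was 0.0514. Atox1, the chaperone that hands copper to Atp7a, had 372, 322, 288 and 276 in KO, against 435, 472, 474 and 260 in WT. WT4 was the lowest of its 8 libraries, and Atox1 was not called (-0.35 ± 0.20, adjusted p = 0.254).

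Of 10 sodium-calcium and sodium-proton exchangers tested, 1 was higher (2 with the replicate block) and 2 lower with a median of 0.00. Slc9a7, an exchanger of the Golgi, had 1819, 2038, 1975 and 2062 in KO, against 4629, 3979, 3046 and 2824 in WT (-0.85 ± 0.15, adjusted p = 0.00492). KO libraries were tight and far below WT, where WT1 and WT2 were the highest. Slc9a8 was lower (-0.45 ± 0.11, adjusted p = 0.0196, up to 0.0575 without KO1, KO4 or WT2), and the plasma membrane sodium-calcium exchanger Slc8a2 was higher (0.68 ± 0.16, adjusted p = 0.0193, up to 0.0533 without KO1 or KO2). Over all 8 lists, 8 genes were called higher and 17 lower, where 11.1% and 9.81% of all genes were called. In the order given, the lists held 14, 6, 24, 4, 10, 11, 7 and 10 tested genes.

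**Figure D5:**
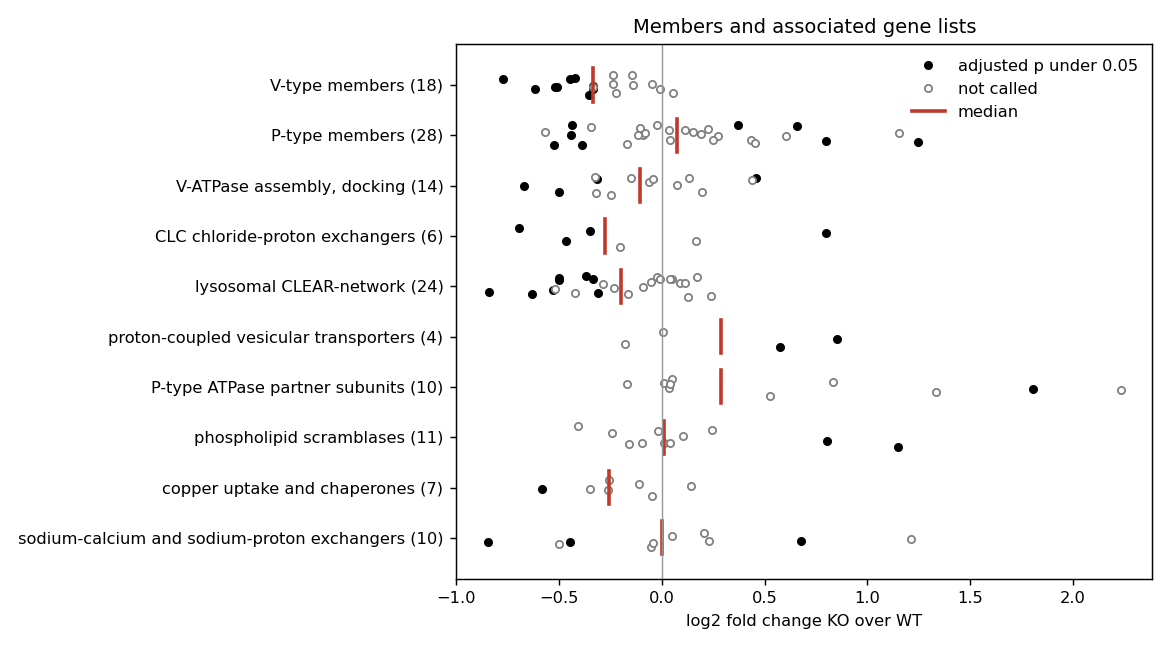
Log2 fold change of KO over WT (x axis) for the members and 8 lists of associated genes, with the number tested in brackets: filled points are called genes, open points are not called, red bars are medians. The V-type genes lie almost wholly left of 0 with a median of -0.33, while the P-type genes are spread around 0.07.

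Genes of these families without a row in the table were not analysed here. GENCODE M21 annotates 8 such V-type genes (Atp6ap1l, Atp6v0a4, Atp6v0d2, Atp6v1b1, Atp6v1c2, Atp6v1e2, Atp6v1fnb and Atp6v1g3) and 8 P-type genes (Atp10b, Atp13a4, Atp13a5, Atp1a4, Atp1b4, Atp2c2, Atp8b3 and Atp8b4). The kidney and bone isoforms of the pump are among the V-type ones.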

How the data were processed

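Islet RNA from 4 KO and 4 WT mice was sequenced in bulk. Per the submitters' processing notes, edgeR 3.16.15, RSEM 1.2.31, STAR 2.5.3a and bcl2fastq 2.20 were used with genome build GRCm38.p5. Neither settings nor strandedness is given in the sources used here. The per-library values deposited by the authors are normalized counts rounded to whole numbers, treated as a score and not as raw counts, so no count test was run and depth is unknown. The same table, deposited by the authors, holds their log2 fold change and log2 CPM, a likelihood ratio as a score, and a p-value with its FDR.

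From the values, log2(value + 1) was tested with limma-trend (limma 3.58.1, R 4.3.3) on the 14121 of 14126 genes that reached a value of 1 in 4 or more libraries, with Benjamini-Hochberg adjustment over all of them, two-sided, and a threshold of 0.05. The fit had no covariate. Fold changes on this scale understate those of low genes. The fit was also run on simulated data in which noise was independent between libraries. That run lacked the split by library number described above, so it cannot speak to error rates under it. The mice of each group are taken as separate animals from the count per group in the design text.

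Values per library are given for called members and for other isoforms of a, G and beta subunits. All 46 members count in the totals, and 4 of them, with 1 gene of an associated list, are not reported here by name or value. Values per library are also given for Atp6v1h, Atp6v0e2, Atp2b3, Atp7b, Atp8b1 and Atp8a2, which were chosen after their values were seen, as were other members named without a call, Tfeb, Tfe3, Mitf, Tcirg1, Tmem30a, Atox1 and the genes that overlap or copy members. In each associated list up to 4 called members with the largest change are named. Members and lists were chosen with earlier results of these data known.

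Levels per kb divide the values by the union of annotated exons (GENCODE M21, GRCm38). Promoters are RefSeq entries, searched for 8 motifs on both strands.

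Replicate numbers 1 to 4 occur in both groups, and the deviations of same-numbered libraries from their group means correlated across 13081 genes with r of 0.327, 0.583, 0.664 and 0.381. Genes are not independent replicates. Each r was above 0.1, so a fit with the replicate block stood beside the main one, which has no block. No r is given for libraries of different number. Same-numbered libraries also share the split of libraries 1 and 2 against 3 and 4, so these r cannot show that the numbers pair the mice. Other alternatives were pseudocounts of 0.1 and 10, no filter, a filter of 10, library totals made equal with and without hormone and mitochondrial genes, robust moderation, the sets of libraries 1 and 2 and of 3 and 4 as a term or alone, each library left out in turn, and the FDR of the authors' deposited table.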

Additional observations from a re-analysis of the deposited data

Results flagged for a closer look

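Single libraries far from the other 3 of their group were found for 3 of the 96 groups of 4 values that the members, Ern1 and Xbp1 give, where chance alone gives about 1 in 20. Atp10a had 291 in KO1, against 150, 122 and 125 in the other KO libraries. Atp6v1g1 had 3155 in WT4, against 3602, 3583 and 3590 in the other WT libraries, which brings its WT group nearer to the KO libraries. Atp1b2 had 424 in WT4, against 365, 360 and 361 in the other WT libraries. The cause of these values was not tested.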

How the results depend on the processing

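No called member changed sign under any alternative that was run. Over the 42 members whose values are given and all alternatives, 734 values kept their sign and their side of the threshold, 63 called ones no longer passed it, 18 newly passed it, and 25 changed sign, all of them of members not called under either setting. The sign changes, as log2 fold changes, were these. With equal totals Atp13a2 had 0.011 and Atp6v1d 0.03, and with hormone and mitochondrial genes left out of the totals 0.018 and 0.037. In libraries 1 and 2 alone Atp11b had -0.116, Atp13a2 0.242, Atp13a3 -0.218, Atp2b1 -0.026 and Atp9a 0.02. In libraries 3 and 4 alone Atp11a had -0.005, Atp6v0a2 0.019, Atp6v0e2 0.041 and Atp6v1d 0.056. With 1 library left out, Atp11b ran between -0.055 and 0.134, Atp13a2 between -0.119 and 0.132, Atp13a3 between -0.052 and 0.119, Atp6v1d between -0.059 and 0.062, and Atp6v1g2 between -0.15 and 0.271. The pseudocounts, filters and robust moderation changed no member's call. With library totals made equal, 6 V-type genes were lower, Atp6v1a, Atp6v1b2 and Atp6v1f having lost their calls (adjusted p = 0.0755, 0.0549 and 0.0642). With hormone and mitochondrial genes left out of the totals, Atp7a was lost as well (adjusted p = 0.0641). With the replicate block, 8 V-type genes were lower, and 4 P-type genes were higher and 6 lower, against 14.2% and 11.7% of all genes, and 13 genes of the associated lists were higher. The block changed the calls of Atp6v1a, Atp8b1 and Atp8a2 and of no other member. With a term for libraries 1 and 2 against 3 and 4, 2400 genes in all were higher (17%) and 2102 lower (14.9%), and 14 associated genes were higher, as in the authors' deposited table with 14. In that fit 10 V-type genes were lower, and 5 P-type genes were higher and 6 lower. Newly called were Atp6v0a1, Atp8a2 and Atp8b1 as lower and Atp10d as higher (adjusted p = 0.0250, 0.0262, 0.0148 and 0.0362). In libraries 3 and 4 alone, 3 V-type and 1 P-type genes were lower. Leaving out 1 library at a time gave 1121 to 1684 genes higher and 863 to 1597 lower in all, 6 to 10 V-type genes lower, 2 to 5 P-type genes higher and 1 to 6 lower, and 6 to 11 associated genes higher and 10 to 19 lower. All genes called lower numbered 909 without KO4 and 863 without WT2. P-type genes called higher numbered 2 without KO2, WT1, WT2 or WT3, and those called lower numbered 1 without KO3 or WT2 and 2 without KO4. Associated genes called lower numbered 11 without KO1 and 10 without WT2. Counts of associated genes are over all lists and are given without a share, so they are not set against the background. The causes were not tested. Depth is unknown, so low genes such as Atp2b3 carry no counting interval, and overlapping or copied genes cannot be told apart without strand.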
